A study of Arabidopsis thaliana with 2 samples.

Results

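The microRNA loci of Arabidopsis thaliana, the genes that give rise to primary microRNA transcripts, were examined in RNA from mature pollen. They were taken as every row that the deposited tables type as miRNA, which gave 177 of 33322 nuclear loci. The study, whose title names small RNAs of transposons set off by microRNA and a response to genome dosage, sequenced pollen of 2 ecotypes, Col-0, whose genome is the reference, and Ler-0. Each ecotype has 1 library, and no mutation, transgene or treatment is labelled in either. Plants of both grew in long days, pollen was shaken from open flowers into buffer and passed through a mesh, and the ScriptSeq-v2 kit was used on total RNA after removal of rRNA. Values are FPKM, reads scaled by locus length and library size. With 1 library per ecotype there is nothing to test a difference against, so no p-value is given.

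A microRNA gene is transcribed by RNA polymerase II into a capped and polyadenylated primary transcript with a stem-loop. In plants DCL1, with HYL1 and SE, cuts the mature microRNA out of that stem in the nucleus, and AGO1 then uses it to find and silence target transcripts with near-complete pairing. Mature pollen consists of sperm cells carried within a tube-forming vegetative cell, and miR845 is known there for matching the site where tRNA primes reverse transcription of LTR retrotransposons. The libraries were made from long RNA, so the values stand for primary transcripts and for any other RNA counted at those places, not for mature microRNA.

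The mature sequences below belong to the loci on which the results turn: the loci with the most reads (miR780, miR408, miR156a, miR860 and miR837), conserved families listed at FPKM 1 or more, and miR159a and miR845, whose loci had few or no reads. They were read 5′ to 3′ at the coordinates of the RefSeq annotation of TAIR10.1, and capitals mark the seed, bases 2 to 8.
miR780.1: uCUAGCAGcuguugagcaggu
miR780.2: uUCUUCGUgaauaucuggcau
miR408-3p: aUGCACUGccucuucccuggc
miR156a-5p: uGACAGAAgagagugagcac
miR157b-5p: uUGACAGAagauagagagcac
miR860: uCAAUAGAuuggacuauguau
miR837-5p: aUCAGUUUcuuguucguuuca
miR396a-5p: uUCCACAGcuuucuugaacug
miR160a-5p: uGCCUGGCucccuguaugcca
miR167d: uGAAGCUGccagcaugaucugg
miR169c: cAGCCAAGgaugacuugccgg
miR403-3p: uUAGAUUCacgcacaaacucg
miR159a: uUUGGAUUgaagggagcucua
miR845a: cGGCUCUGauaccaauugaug
miR845b: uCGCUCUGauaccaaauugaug

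Reads counted at the listed microRNA loci were a very small part of all counted reads. Parts of a primary transcript outside the listed span are not in these counts, and RNA of overlapping genes can be. The 177 loci held 3979 of 76488187 counted reads in Col-0, or 0.00520% (95% Clopper-Pearson interval 0.00504 to 0.00537), and 5020 of 88952509 in Ler-0, or 0.00564% (0.00549 to 0.00580). In Col-0 21 loci and in Ler-0 18 loci reached FPKM 1, with 15 in both and 24 in either. Those 24 are 13.6% of the microRNA loci, against 28.7% of all listed loci and 31.9% of protein-coding loci. Most of that gap is also seen among short loci of other kinds: of the loci of 300 bp or less that are neither microRNA nor structural RNA, 16.1% reached FPKM 1, against 12.6% (20 loci) of microRNA loci of that size.

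No read was counted at 96 microRNA loci in Col-0 and at 75 in Ler-0, and 56 had none in either library. That is 31.6% of the loci, against 2.34% of all listed loci and 25.0% of the other short loci. The median microRNA locus spans 126 bp, so FPKM 1 corresponds to 9.56 reads in Col-0 against 11.1 in Ler-0. For the 56 loci without a read, a count of 0 allows up to 0.133 to 0.545 FPKM in Col-0 and 0.115 to 0.468 in Ler-0, depending on span (3 reads each). They are undetected at this depth, which does not show that they are silent. Intervals and limits here reflect counting error and nothing else, because PCR copies are not separate molecules.

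**Figure D1:**
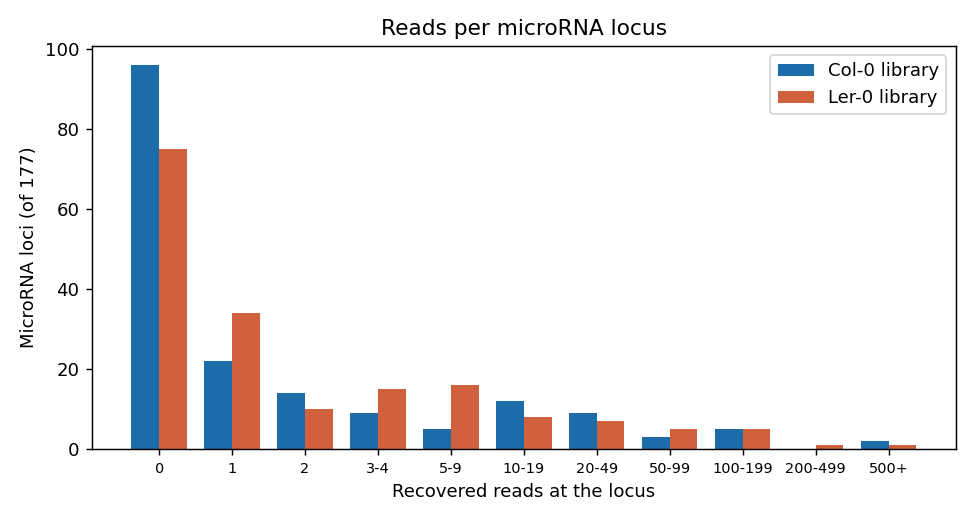
Bars give the number of the 177 microRNA loci (vertical axis) by the recovered reads at the locus (horizontal axis), blue for the Col-0 library and orange for the Ler-0 library. The tallest bars are loci with 0 reads, 96 in Col-0 against 75 in Ler-0, and 2 loci in Col-0 against 1 in Ler-0 reach 500 reads.

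A pair of loci held most of the reads. MIR780 and MIR408 together took 2595 of the 3979 reads in Col-0, or 65.2% (63.7 to 66.7), and 3446 of 5020 in Ler-0, or 68.6% (67.3 to 69.9). Without them, 1384 and 1574 reads were left over the other 175 loci. MIR780 led in Col-0 with 39.2% of microRNA reads, and MIR408 led in Ler-0 with 65.0%. The next in Col-0 were MIR167d (182 reads), MIR860 (147) and MIR156a (128), and in Ler-0 MIR156a (201), MIR780 (181), MIR837 (151) and MIR156c (148). MIR156a is the one member of these lists that both libraries rank among their 5 highest and that shares no base with another listed locus.

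Vegetative cell markers stood above every other marker gene examined, which matches the pollen label. Of 6 vegetative cell markers the levels ran from 222.5 to 5875 FPKM in Col-0 and from 206.1 to 3073 in Ler-0. Of 3 sperm markers, the histone gene MGH3 stood at 58.0 and 138 FPKM, GEX2 at 11.6 and 5.84 and DUO1 at 1.18 and 2.18. The 3 tapetum genes stood at 0.470 FPKM or less. The 5 genes of green tissue summed to 46.2 FPKM in Col-0 against 53.5 in Ler-0, led by LHCB1.1 at 28.9 and 33.1. Of these 5, LHCB1.1, CAB3 and RCA were higher in Ler-0, and RBCS1A and CA1 in Col-0. Their part in the values of microRNA loci was not tested. In a bulk sample, fewer cells of a type and less RNA per cell cannot be told apart.

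**Figure D2:**
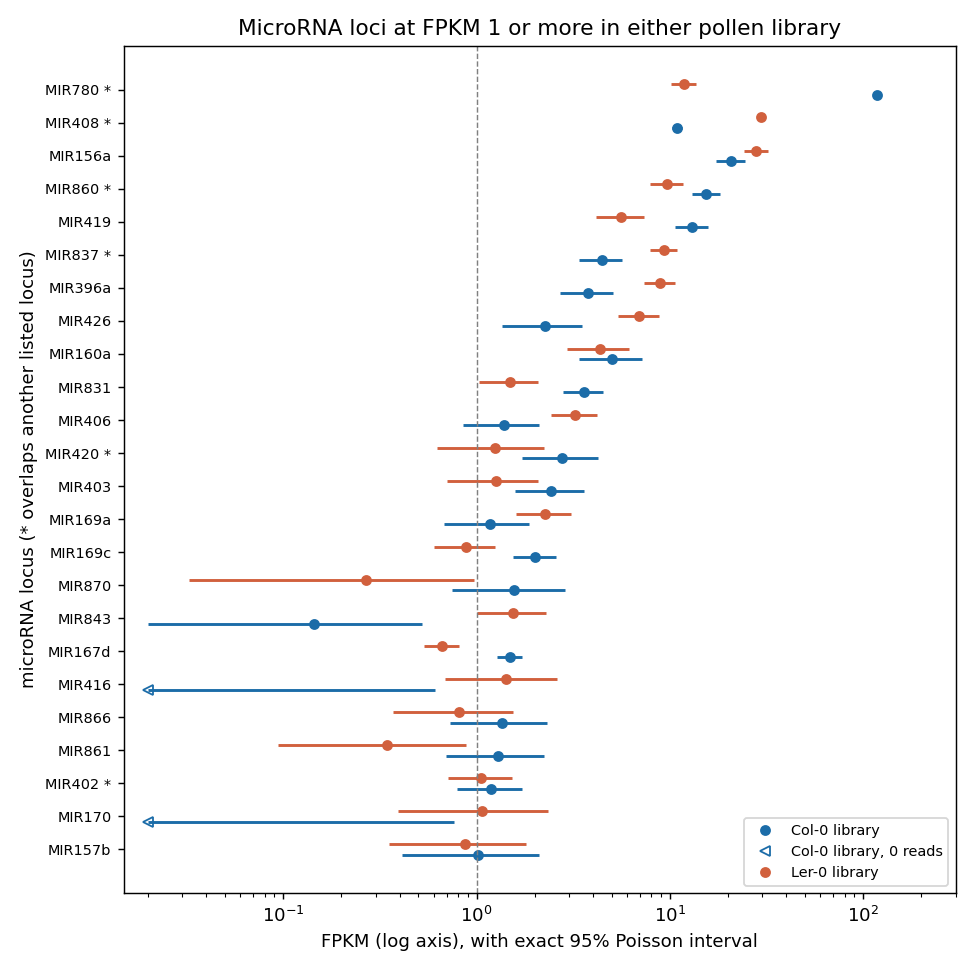
FPKM (horizontal, log axis) of the 24 microRNA loci at FPKM 1 or more in either library, with exact 95% Poisson intervals, blue for Col-0 and orange for Ler-0, and open triangles at the left for 0 reads. MIR780 in Col-0 is highest, at 118 FPKM, and the intervals of the 2 libraries stand well apart at MIR780 and MIR408 and overlap at MIR160a, MIR402 and MIR157b.

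Between the ecotypes, the 24 loci lay on both sides of the centre of all loci. Differences are given on a centred log2 scale: 1 was added to each FPKM, Col-0 was subtracted from Ler-0 after taking log2, and the result was shifted by the median of 0.06 over the 6656 loci at FPKM 1 or more in both. The median of the 24 was −0.20, with 10 above and 14 below 0, beside 0.06 over all 9562 loci at FPKM 1 or more in either. At 4-fold, 1 of the 24, MIR780, was higher in Col-0, where 2.22% of all such loci were, and 0 were higher in Ler-0, where 3.44% were. At 2-fold, 3 were higher in Col-0 (MIR780, MIR419 and MIR870) against a background of 10.3%, and 4 in Ler-0 (MIR408, MIR426, MIR416 and MIR843) against 11.3%. These shares are near the background, given that 1 locus is 1 in 24. The interval of the ratio, which covers counting error only, lay wholly below 1 at 9 loci, wholly above 1 at 10 and across 1 at 5. That count was not made over all listed loci, so it does not set the microRNA loci apart.

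**Figure D3:**
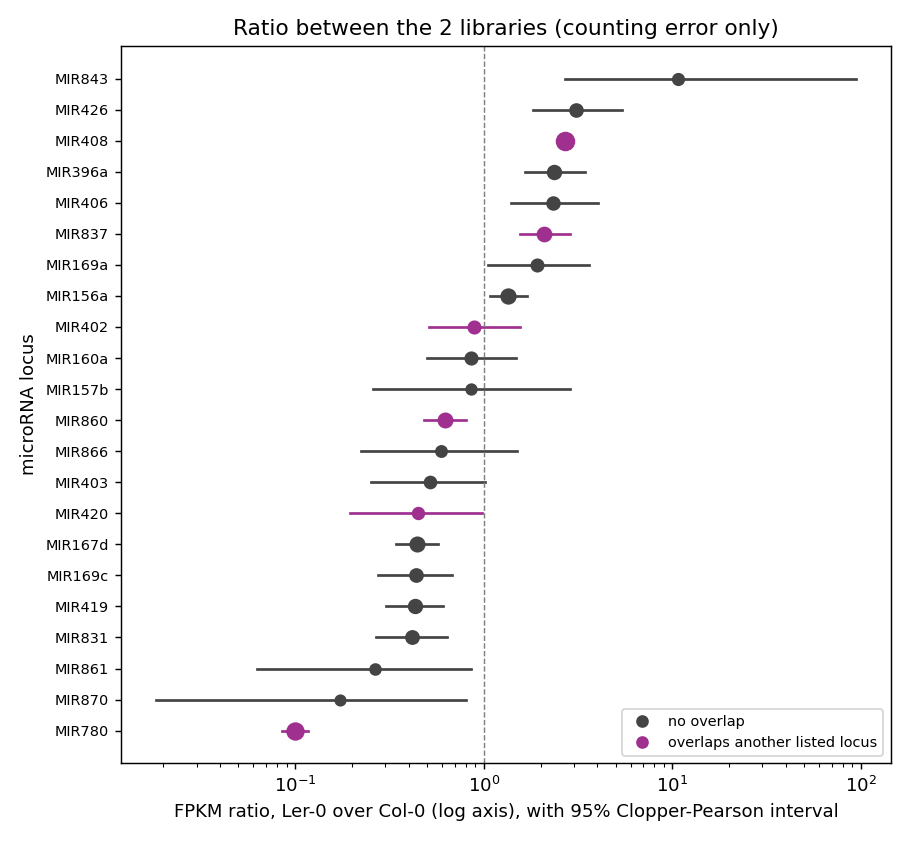
FPKM in Ler-0 divided by that in Col-0 (horizontal, log axis), with 95% Clopper-Pearson intervals, for the 22 of the 24 loci that had reads in both libraries, with larger points for more reads and purple for loci that overlap another listed locus. MIR780 lies far to the left at 0.0998, and the widest intervals belong to MIR843 and MIR870, which had 2 reads in one library.

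MIR780 (AT4G14811, chromosome 4, 8504141 to 8504314, minus strand, TAIR10) had 1559 reads in Col-0 against 181 in Ler-0, that is 118 FPKM (112 to 124) and 11.8 FPKM (10.11 to 13.6). Its ratio was 0.0998 (0.0851 to 0.117), a centred log2 ratio of −3.28. The locus lies over 170 of its 174 bp on the opposite strand of AT4G14810, a protein-coding locus of 365 bp. AT4G14810 stood at 260 FPKM in Col-0 (7235 reads) against 14.8 in Ler-0 (480 reads), a ratio of 0.0570 (0.0519 to 0.0626), lower than that of MIR780 itself. Reads of the microRNA locus and of the overlapping gene cannot be told apart in these tables. The annotated target of miR780, the cation/proton exchanger gene CHX18, stood at 0.915 FPKM in Col-0 (235 reads) against 0.151 in Ler-0 (45 reads), so both the locus and the target were higher in the Col-0 library. CHX18 overlaps another listed locus, AT5G41612, and is named for its role, although it is under FPKM 1 in both libraries.

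That overlapping loci share reads was read from the tables. Among 502 pairs in which a locus lies wholly inside another, the inner never held more reads than the outer in either library, in 241 of 241 pairs on the same strand and 261 of 261 on opposite strands. In 13 of the opposite-strand pairs the inner locus took less than 50% of the outer span but more than 50% of its reads in Col-0. Reads thus appear to have been counted for every locus they touched, whatever its strand and with introns included. Of the 177 microRNA loci, 33 overlap another listed locus and 6 of these 33 (18.2%) reached FPKM 1. Of the 144 that overlap none, 18 (12.5%) did.

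MIR408 (AT2G47015, chromosome 2, 19319780 to 19321026, plus strand) had 1036 reads in Col-0 against 3265 in Ler-0, or 10.9 FPKM (10.2 to 11.6) and 29.5 FPKM (28.5 to 30.5). The ratio was 2.71 (2.53 to 2.91), a centred log2 ratio of 1.30. All its 1247 bp lie inside AT2G47020, a peptide chain release factor gene on the opposite strand, which stood at 9.32 and 28.9 FPKM. MIR408 covers 46.1% of that gene's span and held 53.7% (51.5 to 56.0) of its reads in Col-0 and 46.9% (45.7 to 48.1) in Ler-0. Over the rest of the gene the ratio was 3.56 (3.31 to 3.84), so the part outside MIR408 differed at least as much between the libraries. The values of MIR408 therefore do not separate it from its host. A known target of miR408, the plantacyanin gene ARPN, stood at 1.06 FPKM in Col-0 against 1.13 in Ler-0, a ratio of 1.06 (0.825 to 1.37).

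MIR837 stood out among loci inside a host because the reads were piled on the microRNA locus. It lies in an intron of NRT1.9, a nitrate transporter gene, on the same strand (AT1G18879, chromosome 1, 6520941 to 6521124). It had 62 reads in Col-0 against 151 in Ler-0, or 4.43 FPKM (3.40 to 5.68) and 9.28 FPKM (7.86 to 10.9), a ratio of 2.09 (1.55 to 2.86). In 7.02% of the host span it held 62 of 79 host reads in Col-0, or 78.5% (67.8 to 86.9), and 151 of 232 in Ler-0, or 65.1% (58.6 to 71.2). NRT1.9 as a whole was at 0.394 and 0.995 FPKM, with 17 and 81 reads outside MIR837.

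MIR860 (AT5G26038, chromosome 5, 9098791 to 9098916) lies in an exon of the ferrochelatase gene FC1 on the same strand. It stood at 15.4 FPKM (13.0 to 18.1; 147 reads) in Col-0 and 9.62 FPKM (7.89 to 11.6; 107 reads) in Ler-0, which gives a ratio of 0.626 (0.483 to 0.808). The rest of FC1 went the other way, with a ratio of 1.30 (1.20 to 1.42). In 4.62% of the span, MIR860 held 13.7% (11.7 to 15.9) of the FC1 reads in Col-0 and 7.09% (5.85 to 8.50) in Ler-0. Whether the reads at MIR860 come from a primary transcript or from FC1 cannot be told apart.

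The other 2 host loci that hold a same-strand microRNA locus at FPKM 1 or more showed no such concentration. MIR402, in an intron of AT1G77230, had 28 and 29 reads, or 1.19 and 1.06 FPKM, a ratio of 0.891 (0.511 to 1.55). MIR420, in an intron of AtVEX1, a sugar transporter gene known as a mark of the vegetative cell, had 21 and 11 reads, or 2.77 and 1.25 FPKM, a ratio of 0.450 (0.196 to 0.977). The rest of AtVEX1 had nearly the same ratio, 0.399 (0.351 to 0.454). Both loci took a smaller share of host reads than of host span.

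Some microRNA loci had almost no read although the host had many. MIR156f, which lies wholly in exon sequence of AT5G26146, had 0 reads in both libraries. That host had 4641 reads in Col-0 against 5777 in Ler-0. MIR852, in an intron of AT4G14500, had 0 and 4 reads beside 3240 and 5399 for the host. MIR838, which lies in an intron of DCL1, the enzyme that cuts microRNA precursors, had 2 and 0 reads beside 323 and 424 for DCL1. MIR852 and MIR838 were chosen after their values were seen, for the contrast with MIR837.

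**Figure D4:**
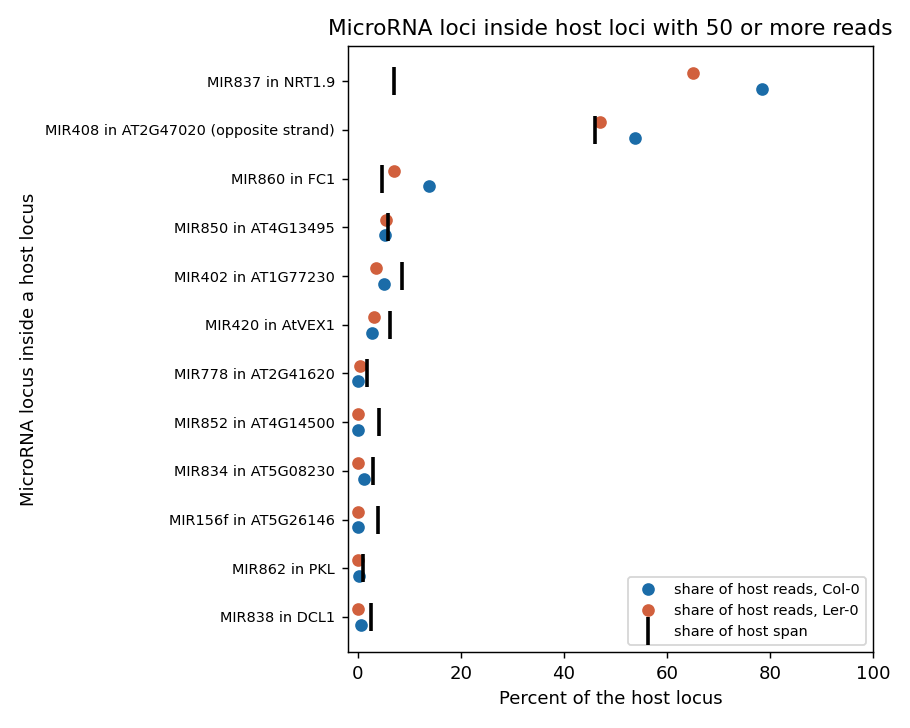
For 12 microRNA loci inside a host locus with 50 or more reads in both libraries, points give the share of host reads that fell in the microRNA locus (percent; blue for Col-0, orange for Ler-0) and black bars the share of the host span. MIR837 is far right of its bar in both libraries, MIR860 lies right of it, and MIR408 lies near it at 46.1%.

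Among loci that overlap no other, a member of the miR156 family had the highest FPKM in both libraries. MIR156a (AT2G25095, chromosome 2, 10676472 to 10676553, minus strand), whose microRNA silences SPL transcription factor genes that time the change from juvenile to adult growth, had 128 reads in Col-0 against 201 in Ler-0. It stood at 20.7 FPKM (17.2 to 24.6) and 27.9 FPKM (24.2 to 32.0), a ratio of 1.35 (1.08 to 1.70) and a centred log2 ratio of 0.35. The nearest listed locus, AT2G25100, is 2970 bp away and stood at 0.270 and 0.332 FPKM.

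The rest of the miR156 family was lower in FPKM. MIR156c, listed with a span of 2555 bp, had 110 and 148 reads, or 0.563 FPKM in Col-0. In reads it came near MIR156a (128 and 201), which is listed with a span of 82 bp. Listed spans of microRNA loci run from 64 to 2897 bp, so FPKM of loci with unlike spans are not directly comparable. The other 6 loci (MIR156b, MIR156d to MIR156h) had 0 to 2 reads each. Of the related MIR157 loci, MIR157b had 7 reads in each library (1.02 and 0.874 FPKM), MIR157d 11 and 12, MIR157c 1 and 1 and MIR157a none. The seed GACAGAA is shared by the 8 MIR156 loci and MIR157d, and MIR156a was the 1 locus of these 9 at FPKM 1 or more. Of 11 SPL genes targeted by miR156, 3 reached FPKM 1. SPL5 and SPL13A overlap another listed locus. SPL6 stood at 2.22 and 2.55 FPKM and SPL5 at 1.09 and 1.19, while SPL13A, which has a near-identical partner in SPL13B, stood at 1.14 in Col-0 against 0.213 in Ler-0.

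Loci of regulators of auxin response and growth showed lower values. MIR160a, whose microRNA silences auxin response factor genes ARF10, ARF16 and ARF17, had 30 reads in each library, or 5.03 FPKM (3.39 to 7.18) and 4.32 FPKM (2.92 to 6.17). MIR167d, which acts on ARF6 and ARF8, had 182 and 94 reads over 1605 bp, or 1.48 and 0.659 FPKM, a ratio of 0.444 (0.342 to 0.573). The intervals of MIR167d do not overlap between the libraries, and those of MIR160a overlap over most of their range. MIR396a, which acts on GRF growth regulators, had 43 and 118 reads, or 3.75 FPKM (2.71 to 5.05) and 8.84 FPKM (7.32 to 10.6), a ratio of 2.36 (1.65 to 3.43). Of the GRF genes, those at FPKM 1 or more were GRF8 at 0.413 and 1.38 FPKM and GRF3 at 2.41 and 2.90, so MIR396a and these targets were all higher in the Ler-0 library. GRF3 overlaps another listed locus.

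The large MIR169 family, which acts on NF-YA transcription factor genes, had 2 of 14 loci at FPKM 1 or more, and they differed in opposite ways. MIR169c had 63 reads in Col-0 against 32 in Ler-0, or 2.01 and 0.877 FPKM, a ratio of 0.437 (0.276 to 0.679). MIR169a had 17 and 38 reads, or 1.17 and 2.25 FPKM, a ratio of 1.92 (1.06 to 3.63). Both share the seed AGCCAAG with 8 other loci of the family, none of which reached FPKM 1. MIR169a lies 4 bp from AT3G13404, on the same strand and at 0.711 and 0.475 FPKM. The targets NF-YA1 (3.42 and 5.61 FPKM) and NF-YA5 (2.18 and 4.46) were higher in Ler-0. NF-YA5 overlaps another listed locus.

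MIR403, whose microRNA silences AGO2, had 25 and 15 reads, or 2.44 FPKM (1.58 to 3.60) and 1.26 FPKM (0.704 to 2.08), a ratio of 0.516 (0.253 to 1.02) that spans 1. MIR170, of the family that acts on HAM transcription factor genes, had 0 reads in Col-0 against 6 in Ler-0. With Col-0 set to its limit of 3 reads the ratio is 1.72, which leaves out counting error in Ler-0. With 0 to 6 reads, that locus carries little weight.

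Loci of less conserved families made up the rest of the 24. Among 93 loci of families shared widely by flowering plants, 10 reached FPKM 1, with 36 at 0 in both libraries. Among the 84 others, 14 did and 20 were at 0 in both. The median centred log2 ratio was 0.09 for the 10 and −0.57 for the 14, and no test was made of that difference. It was 0.06 for all listed loci at FPKM 1 or more in either library. No role is given here for the microRNAs of the loci in the next paragraph.

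MIR419 had 104 reads in Col-0 against 52 in Ler-0, or 12.9 FPKM (10.6 to 15.7) and 5.57 FPKM (4.16 to 7.30), a ratio of 0.430 (0.302 to 0.605). MIR831 had 70 and 34 reads, or 3.57 and 1.49 FPKM, a ratio of 0.418 (0.269 to 0.638). Both lie close to a more abundant gene on the same strand, MIR419 146 bp from AT4G32440 (14.4 and 15.3 FPKM) and MIR831 286 bp from ASG1 (34.2 and 17.3 FPKM). In Ler-0, MIR426 was higher at 2.26 and 6.95 FPKM (19 and 68 reads), a ratio of 3.08 (1.83 to 5.42), and MIR406 at 1.38 and 3.22 FPKM (21 and 57 reads), a ratio of 2.33 (1.39 to 4.05). These 2 lie 2220 bp and 4149 bp from the nearest locus, which stood under 0.1 FPKM in both cases. MIR843 had 2 and 25 reads, a ratio of 10.7 (2.68 to 93.6), and lies 43 bp from AT3G48058. The loci with fewest reads were MIR861 (13 and 4), MIR866 (13 and 9), MIR870 (10 and 2) and MIR416 (0 and 10). MIR416 has 6 near-identical copies in the genome, 1 of them at a listed locus, so the place of its reads is uncertain.

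Position gave a further description. Of the 144 loci without overlap, 58 lie within 500 bp of another listed locus and 86 farther away, and 7 and 11 of them reached FPKM 1, or 12.1% and 12.8%. By chromosome the 24 fall as 6 of 53 loci on chromosome 1, 7 of 29 on 2, 3 of 30 on 3, 2 of 28 on 4 and 6 of 37 on 5. The 39 loci that lie within 10 kb of another microRNA locus form 15 clusters, and 14 of these held no locus at FPKM 1 or more. The exception holds MIR157b. Thus 1 of the 39 (2.56%) reached FPKM 1, beside 13.6% of all microRNA loci, which was not tested. Some of the larger seed groups held no locus at that level. These included the 9 MIR165 and MIR166 loci that share CGGACCA, which act on HD-ZIP III leaf polarity genes. The 6 MIR399 and 6 MIR395 loci of phosphate and sulfate supply and the 5 MIR172 loci that share GAAUCUU were others. The 10 MIR169 loci with AGCCAAG held 2, and the 9 loci with GACAGAA held 1. At a share of 13.6%, groups this small may hold none, so a count of 0 does not set a group apart.

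MIR845a and MIR845b, the loci tied to the question in the study's title, had 0 reads in both libraries. For MIR845a (AT4G23387) a count of 0 allows up to 0.490 FPKM in Col-0 against 0.422 in Ler-0, and for MIR845b (AT4G23375) up to 0.400 and 0.344. The mature sequences match the 3′ end of initiator tRNA-Met with its added CCA, the end that pairs with the primer binding site of retrotransposons. They are shown with the shared run in capitals, above the matching end of the tRNA.
miR845a: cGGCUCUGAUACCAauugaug
tRNA-Met end beside miR845a: cuGGCUCUGAUACCA
miR845b: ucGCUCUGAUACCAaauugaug
tRNA-Met end beside miR845b: ugGCUCUGAUACCA
The run is 13 bases long in miR845a (bases 2 to 14) and 12 in miR845b (bases 3 to 14), and in both it ends with the last base of the tRNA. The tRNA sequence was read at AT1G69000 on TAIR10.1, and 6 of 11 initiator tRNA-Met loci carry it.

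Loci of the miR159 family were near the limit of detection while 3 of its 6 listed target genes stood far higher. MIR159a had 0 reads in Col-0 against 3 in Ler-0, MIR159b 5 and 3 and MIR159c 6 and 1, or 11 and 7 in all. Of the targets, all MYB transcription factor genes, MYB101, which acts in the pollen tube, stood at 190 FPKM in Col-0 against 281 in Ler-0, and MYB97 at 21.3 and 42.3. MYB120 stood at 9.81 and 63.4 FPKM, a ratio of 6.46 (6.09 to 6.86). It was the 1 of 19 targets at FPKM 1 or more past 4-fold. Of all listed loci at that level, 3.44% were past 4-fold toward Ler-0. DUO1, the regulator of sperm cell formation, stood at 1.18 and 2.18 FPKM. MYB33 (0.250 and 0.263 FPKM) and MYB65 (0.0999 and 0.108) complete the list and are named for that, although under FPKM 1.

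The copper-responsive loci gave few reads apart from MIR408. MIR397a had 1 and 0 reads, MIR397b 1 and 3, MIR398c 6 and 7, MIR857 4 and 20, and MIR398a and MIR398b none. These microRNAs act on laccases and copper/zinc superoxide dismutases, and the factor SPL7 that switches them on in low copper binds a core of GTAC. That motif, which reads the same on both strands, was counted in windows from 250 bases before to 50 after the listed start of each locus. It is in 37.6% of all 33321 windows and in 67 of the 177 microRNA windows (37.9%). MIR408 holds 4, MIR397a 3, MIR397b 4, MIR398b 5 and MIR398c 6, while MIR398a and MIR857 hold none. Of all windows, 0.420% hold as many as the 4 of MIR408. MIR397b holds 4 like MIR408 and had 1 and 3 reads, while the reads of MIR408 cannot be told apart from those of its host AT2G47020. A link between motifs and reads was not tested. MIR398b, with 5 motifs and no read, has a copy of 96.6% identity at MIR398c, so the place of their reads is uncertain. MIR398c also overlaps NRT2.7 over 1930 bp, and its reads cannot be told apart from those of that gene. The window of MIR408 is printed with GTAC in capitals (TAIR10.1, plus strand, chr2:19319530-19319829).
MIR408 window: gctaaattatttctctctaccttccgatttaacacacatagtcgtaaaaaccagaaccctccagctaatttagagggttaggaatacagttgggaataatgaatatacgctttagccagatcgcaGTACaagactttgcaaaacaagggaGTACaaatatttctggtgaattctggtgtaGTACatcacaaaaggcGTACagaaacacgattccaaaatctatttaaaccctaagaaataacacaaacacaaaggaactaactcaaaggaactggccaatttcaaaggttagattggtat

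Loci whose microRNAs act on DCL1 and AGO1, genes of the pathway itself, had few reads. MIR403, which acts on the pathway gene AGO2, stood higher, at 2.44 and 1.26 FPKM. MIR162b, whose microRNA acts on DCL1, had 0 and 1 reads. MIR168a, which acts on AGO1, had 3 and 1 and MIR168b none. DCL1 stood at 0.523 FPKM in Col-0 against 0.590 in Ler-0 and AGO1 at 0.637 and 0.859, and both are named for that role although under FPKM 1. DCL1 overlaps PPa1 as well as MIR838.

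Of 30 genes that make or use microRNAs, 11 reached FPKM 1 in either library, 2 above and 9 below 0 on the centred scale. The median was −0.34 beside 0.06 over all listed loci at FPKM 1 or more in either library. On that centred scale, with its pseudocount, 0 of the 11 passed 2-fold, beside 10.3% (toward Col-0) and 11.3% (toward Ler-0) of all listed loci at that level. The highest were general RNA factors: STA1, a splicing factor, at 19.9 and 16.2 FPKM, CPL1, a phosphatase of HYL1, at 14.3 and 9.53, and CDC5, a transcription and splicing factor, at 5.53 and 12.1. Of the rest, the double-stranded RNA binding proteins HYL1 and DRB4 stood at 0.607 and 1.31 FPKM and at 3.25 and 1.84. AGO5, the Argonaute known from the male germline, stood at 1.41 and 1.34. MOS2 (3.83 and 3.95) and URT1 (3.16 and 1.79) were higher than HYL1 and AGO5, and CPL2, VIP2 and TRN1 complete the 11. Without pseudocount and centring, the ratio was 2.19 at CDC5 and 2.16 at HYL1, the 2 above 0, and lowest at TRN1 (0.563). CPL1 overlaps another listed locus. Of 88 target genes, 19 reached FPKM 1, 13 above and 6 below 0, with a median of 0.17. Over all listed loci 28.7% reached FPKM 1, with 5075 above and 4487 below 0. Another target, LCR, the F-box target of miR394, was 2-fold higher in Col-0, at 5.50 and 2.39 FPKM. So were 10.3% of all listed loci at FPKM 1 or more.

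**Figure D5:**
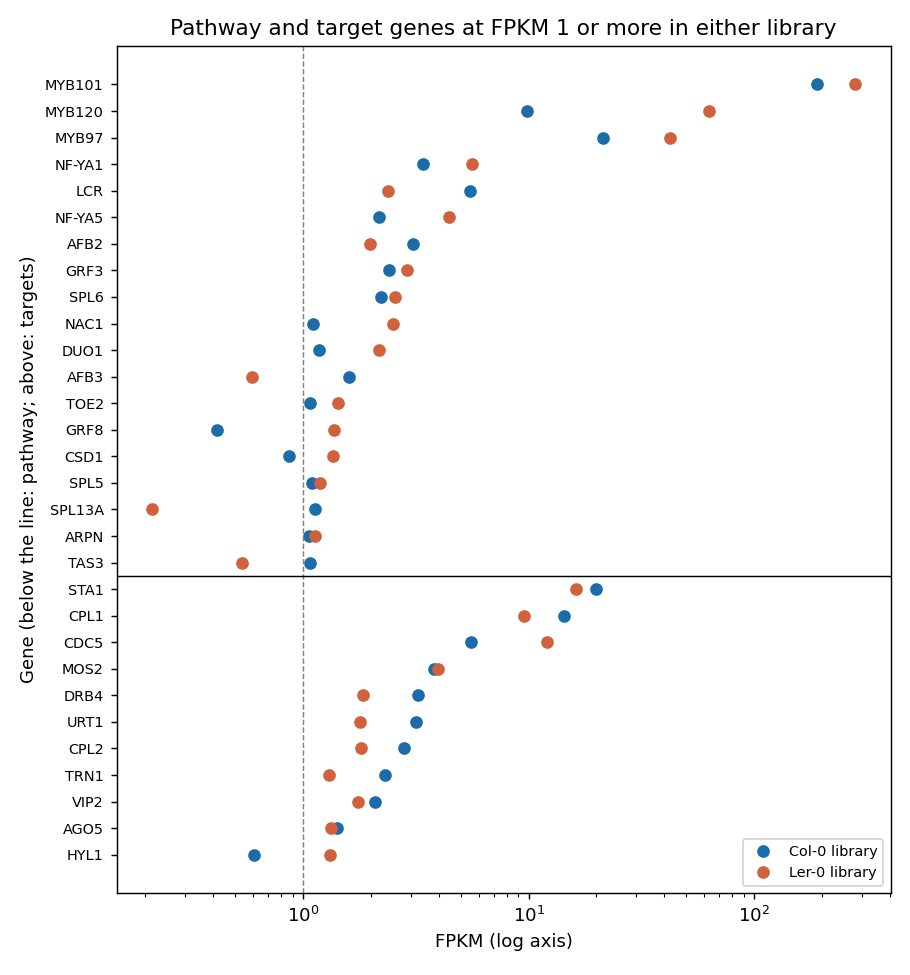
FPKM (horizontal, log axis) of the 11 pathway genes (below the line) and 19 target genes (above it) at FPKM 1 or more in either library, blue for Col-0 and orange for Ler-0, without intervals. The MYB targets of miR159 are highest, with MYB101 at 190 and 281 FPKM, and MYB120 shows the widest gap between the libraries.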

How the data were processed

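RNA of mature pollen from 1 Col-0 and 1 Ler-0 library was compared. The authors deposited FPKM per locus, per the file headers. Subread and the build TAIR10 are listed, per the submitters' processing notes. Neither the strand setting nor the treatment of multi-mapped reads is stated in the labels. TAIR10 is a Col-0 genome, so Ler-0 reads with sequence differences had a poorer match.

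FPKM times span was a whole multiple of 1 step in 100% of values (within 0.01), so reads were recovered, 76488187 in Col-0 and 88952509 in Ler-0. Exact 95% Poisson intervals were put on FPKM, and Clopper-Pearson intervals on ratios and shares. A pseudocount of 1 was used, which understates ratios of low loci. No test was run, since ecotype, plants and library vary together. Scripts were tested on simulated data.

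Loci were matched to RefSeq TAIR10.1 by locus tag (32834 of 33322 listed loci, 177 of 177 microRNA loci). All 177 overlap the annotated place and 115 have the same coordinates. Coordinates printed are those of the tables unless TAIR10.1 is named. Copies were sought with BLAST 2.17.0 (95% identity over 50% of the locus). Python 3.11.15, numpy 2.4.6, pandas 2.3.3, scipy 1.17.1 and matplotlib 3.10.9 were used.

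Named were loci at FPKM 1 or more, the 5 with most reads per library, the MIR845, MIR156, MIR157, MIR159, MIR168, MIR162, MIR397, MIR398, MIR403, MIR408, MIR780 and MIR857 loci, overlapping loci, and pathway genes at FPKM 1 or more; exceptions are marked. The members and lists were chosen with earlier results of these data known. Alternatives covered the pseudocount, the filter, the centring, the threshold and overlapping or close loci.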

Additional observations from a re-analysis of the deposited data

How the results depend on the processing

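No paired analysis was possible because Col-0 and Ler-0 have 1 library apiece. The number of microRNA loci at the FPKM minimum was 21 in Col-0 and 18 in Ler-0. It became 6 and 8 at FPKM 5, 31 in Ler-0 at FPKM 0.5, and 11 and 6 without loci that overlap or lie within 500 bp of another (chosen after seeing the data). With a pseudocount of 0.1, 2 loci passed 4-fold toward Col-0 and 3 toward Ler-0. At 2-fold these were 3 and 4, and without overlapping loci 0 were higher in Col-0, since MIR780 overlaps a gene. The median centred log2 ratio of −0.20 became −0.28 and −0.10 with pseudocounts of 0.1 and 5, −0.14 without centring and −0.10 when centred on loci at FPKM 10 or more. It changed sign to 0.0033 over the 121 loci with any read and to 0.35 over the 9 at FPKM 5 or more, so its direction is not settled. MIR416, MIR843, MIR170 and MIR870 passed 4-fold with a pseudocount of 0.1 alone, each with 2 or fewer reads in one library. Depth limits most loci: 145 of 177 had 10 or fewer reads in both libraries.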
